A study of Homo sapiens with 6 samples.

Results

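hsa-miR-4521 is 1 of 1582 miRNAs counted in small RNA from MDA-MB-231, a human triple-negative breast cancer line. It was chosen by its large fall in cells overexpressing RARαS77A, so the difference between the groups is described here without a test. RARα is a nuclear receptor for retinoic acid, and RARαS77A is a mutant in which serine 77 is replaced by alanine, which cannot be phosphorylated. The 3 RARαS77A libraries came from MDA-MB-231 cells given lentiviral RARαS77A, and the 3 control libraries came from non-transfected MDA-MB-231 cells. As the controls received no empty vector, delivery of the construct and the mutant receptor cannot be told apart, and RARα itself is not measured in small RNA. Total counts lay between 9019266 and 11338580 per library.

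miRNAs are small RNAs that guide Argonaute proteins to partly matching messenger RNAs, which are then repressed. Pairing is led by the seed, the bases near the 5′ end of the miRNA. A known target of miR-4521 is FOXM1, a forkhead transcription factor that drives genes of S phase and mitosis and is abundant in many proliferating tumors. The same RNA has also been described as a tRNA-derived small RNA, a class that includes fragments cut from the 3′ trailer when a tRNA is released from its longer transcript. RNA polymerase III, which makes these transcripts, stops at runs of U.

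The mature sequence and its precursor are shown because the seed decides which messenger RNAs can pair and because the flanks show where the RNA begins and ends. Both are from RefSeq (GRCh38.p14). The seed, bases 2 to 8, is in capitals in the first line and the mature part is in capitals in the second.
miR-4521: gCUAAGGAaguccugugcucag
MIR4521 precursor: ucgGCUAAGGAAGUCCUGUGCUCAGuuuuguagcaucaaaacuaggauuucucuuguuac
The precursor lies on the plus strand of chr17:8186945-8187004 and the mature sequence at chr17:8186948-8186969. None of the 2369 other mature miRNAs in the RefSeq table shared its seed, either over bases 2 to 8 or over bases 2 to 7. The longest stretch in common with any of them was 10 bases, in miR-1910-5p.

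MIR4521 overlapped no other gene in GENCODE 29 (GRCh38). The nearest protein-coding gene was BORCS6 on the minus strand, 1328 bases away, and AURKB, which encodes the mitotic kinase Aurora B, lay 17728 bases away on the same side. In the RefSeq gene table, however, the serine tRNA gene TRS-GCT4-3 ended at the base before mature miR-4521 begins, and its last 3 bases are the first 3 of the annotated precursor. The strand of the tRNA gene is not in that table. Among 2545 mature miRNA loci and 465 tRNA genes, miR-4521 was the 1 miRNA with a tRNA gene within 60 bases. The mature sequence is followed at once by a run of 4 U, as 0.825% of the 1939 mature miRNAs with a flank to compare are. The predicted fold of the precursor had a minimum free energy of -17.1 kcal/mol, or -28.5 per 100 bases, whereas the median of 1560 precursors was -45.2 per 100 bases. Only 5.97% of the other precursors folded as weakly or more weakly. Whether the counted reads came from the tRNA transcript or from a precursor of their own was not tested.

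**Figure D1:**
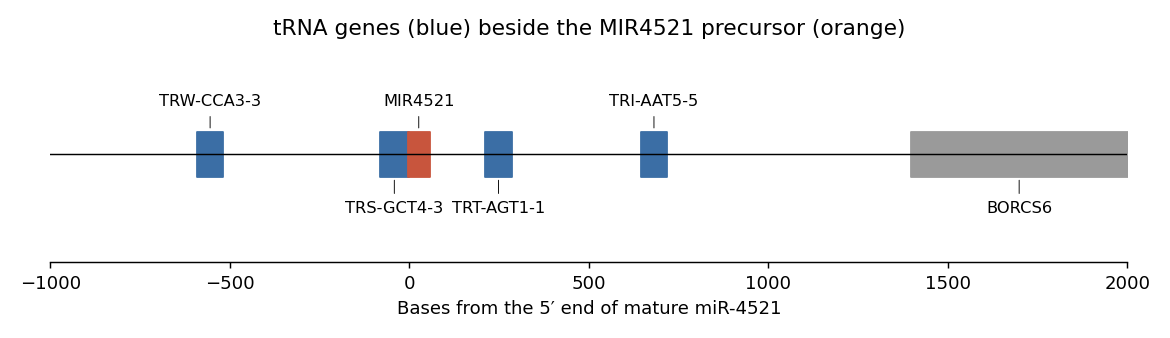
Genes around MIR4521 by their distance in bases from the 5′ end of mature miR-4521, with tRNA genes in blue, the annotated precursor in orange and BORCS6 in grey, which runs on past the right edge. The tRNA gene TRS-GCT4-3 ends directly before the mature sequence, and 3 more tRNA genes lie further out, the nearest starting 212 bases from the mature 5′ end.

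In stem cell markers, control replicate 3 stood apart from the other controls and was nearer to the RARαS77A libraries. Marker sums here are in TPM, a share of total counts without correction for the composition of each library. miRNAs of pluripotent stem cells, the miR-302, miR-367 and miR-371 to miR-373 group, summed to 421.5 TPM in it and to between 278.1 and 287.6 TPM in the RARαS77A libraries, but to 0.185 and 0.0882 TPM in control replicates 1 and 2. All 8 of these markers were in the table, and none was detected in every library. Their part in the difference of miR-4521 was not tested, and values without control replicate 3 are given beside it. Markers of the line, miR-221-3p, miR-222-3p, miR-21-5p, miR-100-5p and miR-125b-5p, were detected in every library, and the epithelial miR-200 group with miR-205-5p was low, as is known for these mesenchymal cells. The epithelial sum was 114.2 to 127.6 TPM in control and 89.7 to 97.1 TPM in RARαS77A libraries. TMM factors, which correct for composition, were 1.15 to 1.30 in control and 0.811 to 0.830 in RARαS77A libraries. Dividing the epithelial sums by these factors reverses the order, with each RARαS77A library above each control. Blood markers summed to 33.3 to 43.4 TPM in control and 23.5 to 32.6 TPM in RARαS77A libraries. Dividing the blood sums by the same TMM factors makes the groups overlap. Neither order therefore holds under both scalings, and the part of either list in the difference of miR-4521 was not tested. The liver miRNA miR-122-5p lay between 8.73 and 53.6 TPM, the endocrine miRNA miR-375-3p between 1.76 and 76.7 TPM, and the muscle list, with miR-208a-3p and miR-208b-3p not in the table, between 2.65 and 91.5 TPM. The highest value of the last 2 was in a single control library each.

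miR-4521 was among the more abundant miRNAs of control cells. It had 17140, 22940 and 11592 counts in control replicates 1, 2 and 3, and 622, 1048 and 1749 counts in RARαS77A replicates 1, 2 and 3. The highest RARαS77A library was far below the lowest control library, which the choice of miR-4521 by its fall favours. As these are bulk libraries, fewer cells with miR-4521 and less miR-4521 per cell cannot be told apart. As a share of all counts, miR-4521 made up 0.159%, 0.202% and 0.129% in the controls. The RARαS77A shares were 0.00642% (95% Wilson interval 0.00593 to 0.00694), 0.0102% (0.00961 to 0.0108) and 0.0175% (0.0167 to 0.0183), and these intervals cover counting error only. By count it ranked at 42, 39 and 45 in the control libraries and at 133, 122 and 98 in the RARαS77A libraries. Its neighbours by level therefore changed. In control cells it stood beside miR-98-5p, a member of the let-7 family, and miR-941. In RARαS77A cells it stood beside miR-32-5p and miR-151a-5p.

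After TMM scaling, which corrects for the composition of each library, miR-4521 had 1375, 1559 and 1059 CPM (counts scaled to a common library size) in control and 79.1, 124.8 and 210.5 CPM in RARαS77A replicates 1 to 3. The means were 1331 ± 253 and 138 ± 66.7 CPM (SD, n = 3 each), a ratio of 9.63. The smallest ratio between a control and a RARαS77A library was 5.03 and the largest was 19.7. In the deposited TPM, which divides by the total count without that correction, the means were 1632 ± 371 and 113.6 ± 56.2 (SD, n = 3 each), a ratio of 14.4. Without control replicate 3 the log2 fold change was -3.47, and with a batch term that leaves it as the only control in its batch it was -2.94, against -3.27 with all libraries.

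**Figure D2:**
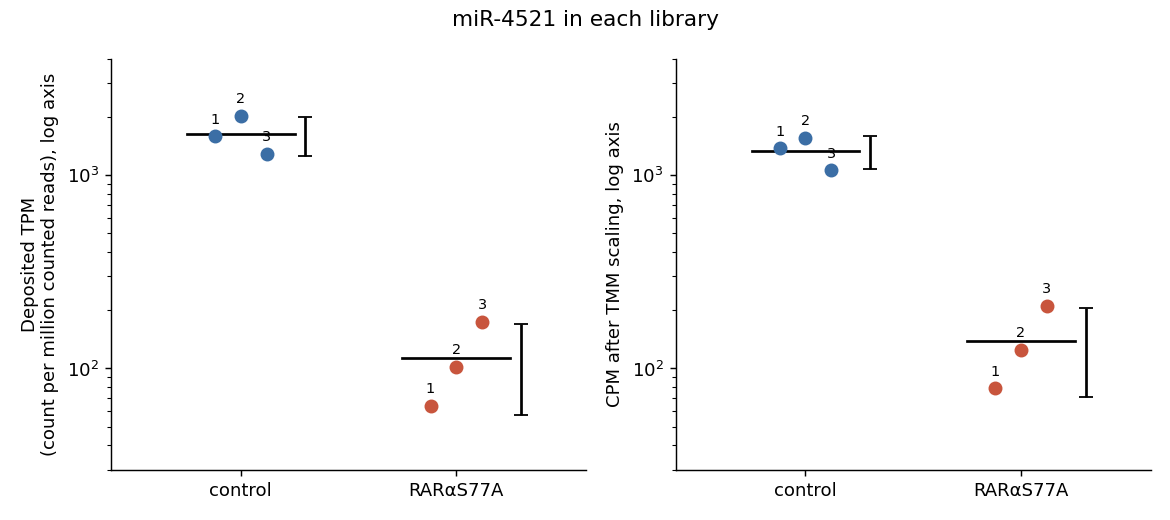
Level of miR-4521 in each library as deposited TPM (left) and as TMM-scaled CPM (right), on log axes, with replicate numbers beside the points, bars at the group means and the SD drawn at the side (n = 3 each). The 3 RARαS77A libraries, between 79.1 and 210.5 CPM, lie below the 3 controls and are spread more widely on this axis.

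The size of the change depended on the scaling. In edgeR with TMM the log2 fold change was -3.27 (standard error 0.36). It was -3.08 with upper quartile factors, -3.32 with RLE factors, -3.51 when the 5 most abundant miRNAs were left out of the totals, and -3.84 with total counts only. In the same settings the 506 tested miRNAs had a median of 0.27, 0.02, -0.17 and -0.51, against 0.06 with TMM. The TMM factors themselves differed between the groups, at 1.15 to 1.30 in control and 0.811 to 0.830 in RARαS77A libraries. Relative to the median of its own setting, miR-4521 was at -3.33 with TMM and between -3.35 and -3.33 in the other 4. Another scaling shifts all miRNAs about alike, so these distances and the order of miRNAs are close to fixed by construction and say nothing of stability. Among the 313 miRNAs averaging 50 counts or more, it had the second lowest log2 fold change in each of these 5 settings. The miRNA below it, miR-181b-3p, was at -4.12 and rested on 0, 3 and 10 counts in the RARαS77A libraries. Next after it came miR-25-5p at -2.58, then miR-1-3p at -2.40 and miR-203a-3p at -2.30. The last 2 values came from high counts in 1 control library, since replicate 1 held 898 counts of miR-1-3p against 28 and 35 in the other controls, and 605 counts of miR-203a-3p against 10 and 78.

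Ratios to single miRNAs that are often used as references gave a like picture. For every 100 counts of miR-103a-3p there were between 13.4 and 18.6 counts of miR-4521 in control libraries and between 1.03 and 3.12 in RARαS77A libraries, a log2 change of -3.26. The log2 change was also -3.26 against miR-191-5p. Against miR-16-5p, the level of miR-4521 fell from above that of the reference in each control, at between 105.1 and 126.6 per 100 counts, to between 10.9 and 33.0, a log2 change of -2.69. Against miR-21-5p the log2 change was -4.02. The references were not equally steady. miR-103a-3p and miR-191-5p had log2 fold changes of -0.09 each (adjusted p = 0.610 and 0.578, edgeR), miR-16-5p was lower at -0.68 (adjusted p = 0.00171, edgeR) and miR-21-5p was higher at 0.65 (adjusted p = 0.0482, edgeR). With total counts only the 4 were at -0.66, -0.66, -1.26 and 0.08.

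**Figure D3:**
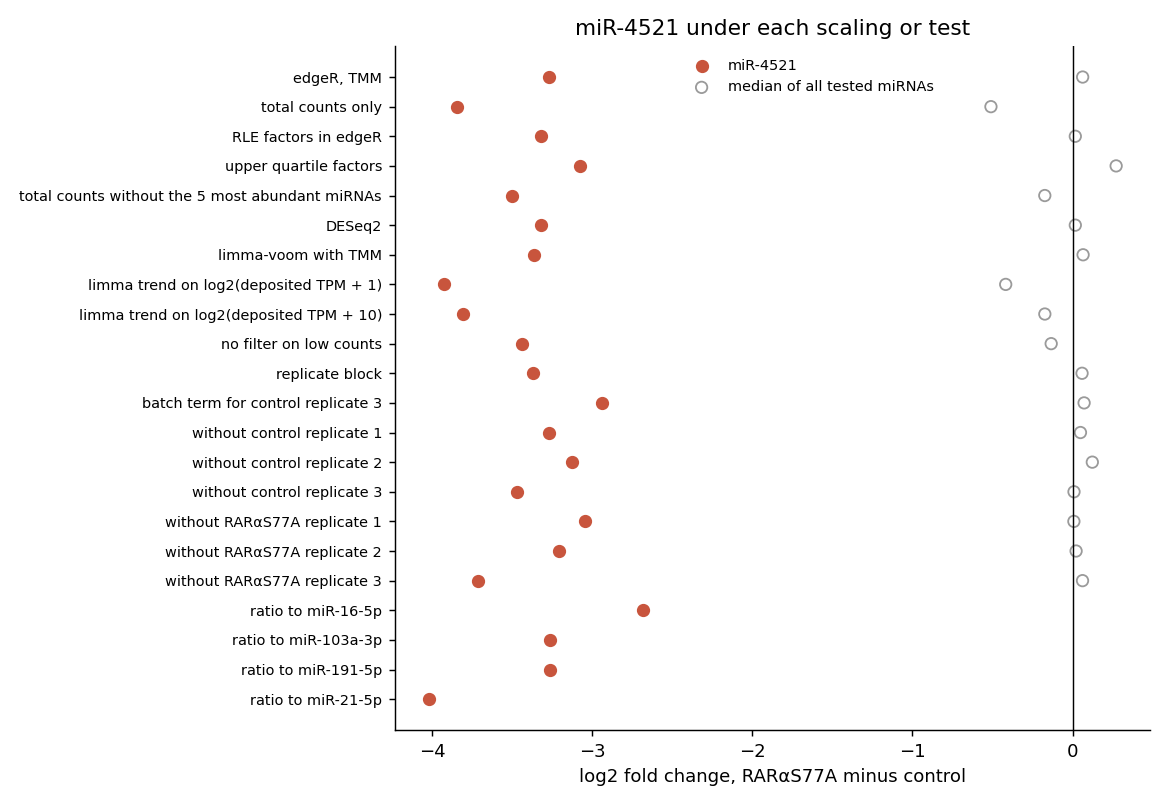
Log2 fold change of miR-4521, RARαS77A minus control, under each scaling, tool, left-out library and reference miRNA (filled), with the median over all tested miRNAs where a fit gives one (open). miR-4521 lies between -4.02 and -2.69, while the medians lie between -0.51 and 0.27.

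The spread between replicates was not used to choose miR-4521, and in RARαS77A cells it was wide. The highest RARαS77A library had 2.66 times the CPM of the lowest, a coefficient of variation (CV) of 48.3% (n = 3). Of the 58 other miRNAs with 0.5 to 2 times its mean CPM in RARαS77A cells, none had a larger CV. Their median was 9.31% and the widest of them, miR-130b-5p, had 28.1%. Among all 506 tested miRNAs, 34 had a larger CV in RARαS77A cells, and the most abundant of these, miR-451a, had a mean of 11.9 CPM. A wide spread in RARαS77A cells was also seen in the scarcer miR-25-5p (CV 45.8% at a mean of 6.41 CPM) and miR-181b-3p (118.8% at 0.520 CPM). In control cells the CV of miR-4521 was 19.0% (n = 3), and 4 of 23 miRNAs of like level exceeded it, up to 27.2% for miR-125a-5p. RARαS77A replicate 1 was lowest and replicate 3 highest. Leaving out replicate 3 gave a log2 fold change of -3.71 and leaving out replicate 1 gave -3.05, the extremes over the 6 libraries left out in turn.

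**Figure D4:**
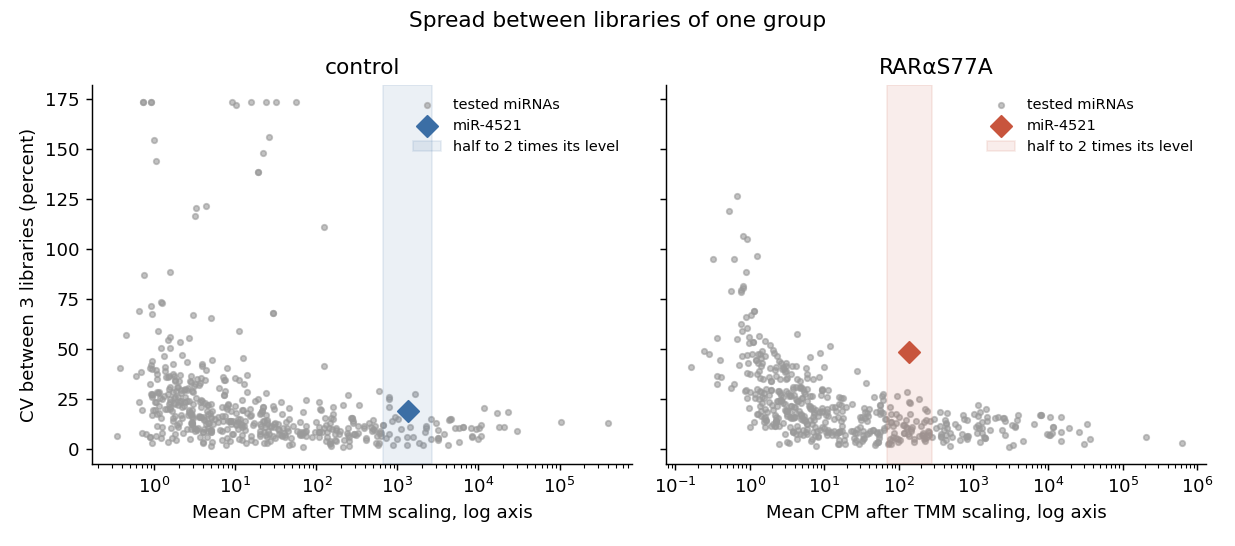
CV between the 3 libraries of a group against the mean TMM-scaled CPM (log axis) for all tested miRNAs, with miR-4521 as a diamond and shading over 0.5 to 2 times its level. In RARαS77A cells (right) miR-4521, at 48.3%, stands above every miRNA in the shaded band, and in control cells (left), at 19.0%, it lies inside the range of its band.

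The miRNAs most like miR-4521 were sought by the root mean square difference of log2(CPM + 1), each centred on its own mean, over the 6 libraries and among the same miRNAs. The nearest was miR-181b-3p, with a difference of 0.28 and Pearson's r of 0.9995, followed by miR-25-5p (0.48 and 0.990). These are the less abundant arms of their precursors. Both had their lowest RARαS77A count in replicate 1 and their highest in replicate 3, as miR-4521 did. There were 26, 57 and 76 counts of miR-25-5p but only 0, 3 and 10 of miR-181b-3p. All 6 libraries entered the search, so this shared order is favoured by construction. Further away were miR-27b-5p (0.80 and 0.978), miR-374b-5p (0.88 and 0.973) and miR-374c-3p (0.88 and 0.973). The counts of the last 2 differed by at most 1 in each library, and the RefSeq sequences are reverse complements of each other at the same position on opposite strands, so which strand the reads came from cannot be told. These r values describe 6 libraries in which the difference between the groups is shared, and miRNAs with a fall of this kind are found by construction.

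Next, the annotated miRNAs on the same part of chromosome 17 were examined, since position was not used in the choice. Of 11 other mature miRNAs within 2 Mb of MIR4521, 8 were in the table and 5 passed edgeR's expression filter. At an adjusted p under 0.05 in edgeR (quasi-likelihood), 2 of these 5 were lower and 0 higher in RARαS77A cells (0 higher also at an unadjusted p under 0.05 and with DESeq2), where 21.1% of all tested miRNAs were called lower and 23.3% higher. Their median log2 fold change was -0.92, which is the value of miR-324-3p, against 0.06 over all tested miRNAs. These 5 come from the precursors MIR195, MIR497 and MIR324 alone, so arms of the same precursor are counted separately. The 2 called lower were miR-195-5p and miR-497-5p, made from neighbouring precursors about 1169 kb away on the minus strand. They belong to the miR-15/16 family of cell cycle repressors. Of the same family but not within 2 Mb, miR-16-5p and miR-15b-5p were also called lower, at -0.68 and -1.06 (edgeR). miR-195-5p had 122, 118 and 68 counts in control and 31, 24 and 30 in RARαS77A libraries, which is -1.21 on the log2 scale (edgeR, adjusted p = 0.00487). miR-497-5p had 71, 107 and 60 counts against 22, 27 and 24, and its log2 fold change was -1.05 (edgeR, adjusted p = 0.00358). Both miR-195-5p and miR-497-5p were scarce beside miR-4521 and their changes were smaller. Without control replicate 3 they were at -1.40 and -1.18 (edgeR, adjusted p = 0.00219 and 0.00364). With the batch term, which leaves 1 control, neither was called (adjusted p = 0.0734 and 0.0527, edgeR). The remaining 3 were miR-324-3p (log2 fold change -0.92, adjusted p = 0.0769, edgeR), miR-324-5p (0.27, adjusted p = 0.267) and miR-195-3p (0.59, adjusted p = 0.230). With total counts only, miR-324-5p turned negative, at -0.31, and miR-195-3p was at 0.02. On log2(TPM + 1), limma put them at -0.27 and -0.01. Without control replicate 1, miR-324-3p was called lower (-1.17, adjusted p = 0.0457, edgeR). It was also called lower with total counts only (-1.51, adjusted p = 0.0136, edgeR). The same held with totals without the 5 most abundant miRNAs, without the filter and with limma on TPM. The remaining fits did not call it. The nearest annotated neighbour in the table, miR-6883-3p at 42.0 kb, had 1 count in all 6 libraries together.

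FOXM1 messenger RNA was not measured in these libraries, so its sequence alone could be examined. Its transcript with the longest 3′ untranslated region in GENCODE 29 has 957 bases there, in which the letters TCCTTAG, which pair with bases 2 to 8 of miR-4521, occur 2 times on the transcript's strand. Both sites are shown because they are what miR-4521 could pair with, written as DNA with the seed match in capitals.
FOXM1 site at base 388: gtaagcttattTCCTTAGatcattatcca
FOXM1 site at base 846: cctgcctggctTCCTTAGcttgcccctca
The first stretch lies at chr12:2858233-2858261 and the second at chr12:2857775-2857803, on the minus strand (GRCh38). In the first, the next base is A, which gives the longer match TCCTTAGA. Among 10284 genes whose 3′ untranslated region is at least as long, 5.40% held TCCTTAG in its first 957 bases, 0.224% held it 2 times or more and 1.66% held TCCTTAGA. Such a match describes letters, and whether either site is bound was not tested.

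Other miRNAs that have been reported to target FOXM1 had log2 fold changes of both signs, as the tested miRNAs as a whole had. Of 9 listed, 8 were in the table, all but miR-802, and 5 passed the filter. In the same edgeR test, 1 was higher and 1 lower, against 23.3% and 21.1% of all tested miRNAs, and the median log2 fold change was 0.23. miR-361-5p had 887, 920 and 706 counts in control and 329, 418 and 358 in RARαS77A libraries, or -0.56 on the log2 scale (edgeR, adjusted p = 0.0178). Without control replicate 1 it was at -0.51 and not called (adjusted p = 0.0563, edgeR). miR-204-5p had 27, 27 and 19 counts against 28, 31 and 35, or 0.99 on the log2 scale (edgeR, adjusted p = 0.00582), but 0.42 with total counts only (edgeR, adjusted p = 0.123). DESeq2 did not call it (adjusted p = 0.0693) and called miR-149-5p higher in its place (adjusted p = 0.0398). Without control replicate 3 both calls stayed, at -0.63 for miR-361-5p (edgeR, adjusted p = 0.0116) and 0.88 for miR-204-5p (edgeR, adjusted p = 0.0247). miR-34a-5p, a target gene of p53, was at -0.48 (adjusted p = 0.0555, edgeR) and was called lower without RARαS77A replicate 3 (-0.59, adjusted p = 0.0417, edgeR). RLE factors (-0.52, adjusted p = 0.0416, edgeR) and total counts only (-1.05, adjusted p = 0.00294, edgeR) also called it lower. So did totals without the 5 most abundant miRNAs and limma on TPM. miR-149-5p was at 0.45 (adjusted p = 0.0731, edgeR) and miR-671-5p at 0.23 (adjusted p = 0.412, edgeR), and with total counts only both turned negative, at -0.14 and -0.34. miR-149-5p was called higher without control replicate 2 (0.63, adjusted p = 0.0260, edgeR). The other 3, miR-134-5p, miR-216b-5p and miR-370-3p, had between 0 and 12 counts per library. In control cells miR-4521, at 1331 CPM, had more counts than any of them, the next being miR-361-5p at 66.1 CPM. In RARαS77A cells the levels were closer, with 138 CPM of miR-4521, 51.0 of miR-149-5p, 46.3 of miR-671-5p and 44.9 of miR-361-5p.

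**Figure D5:**
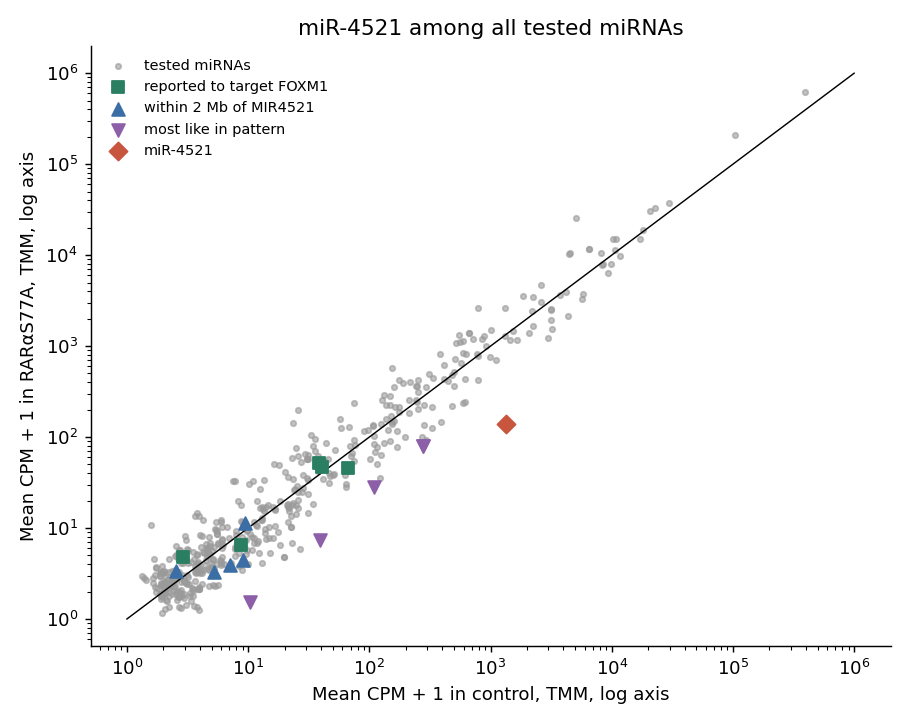
Mean TMM-scaled CPM + 1 in RARαS77A against control libraries (log axes, n = 3 each) for all tested miRNAs, with the line of equal level. miR-4521, at 1331 and 138 CPM, lies furthest below the line among miRNAs of its level in control cells. miRNAs reported to target FOXM1 lie on both sides of the line, as the tested miRNAs as a whole do.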

How the data were processed

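Small RNA of 3 control and 3 RARαS77A libraries was sequenced. The authors deposited read counts, not normalized, and TPM, which equals each count scaled by its library's total count. The submitters' notes name Bowtie. Not given in the sources used here are its version, the genome build, the handling of reads with several matches and whether counting used strand. Whether replicates are separate cultures is not given either, so p-values measure the spread between these libraries. No pair of libraries agreed within counting error.

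Counts of 506 miRNAs passing filterByExpr (minimum count 10) were tested with edgeR 4.0.16 in R 4.3.3 (glmQLFit and glmQLFTest, TMM, no block), with Benjamini-Hochberg adjustment over all 506 at 0.05. Standard errors were taken as |log2 fold change|/√F. DESeq2 1.42.0, limma 3.58.1 (voom, and a trend on log2 of TPM plus 1 or 10), other scalings, reference miRNAs, a replicate block, a batch term and left-out libraries were alternatives. The script was tested on simulated data. Wilson intervals came from scipy 1.17.1 and folds from ViennaRNA 2.7.2. Motifs were searched on the transcript strand, with 1 transcript per gene, the one with the longest 3′ untranslated region.

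Named miRNAs follow a rule: miR-4521, miRNAs sharing its seed, those within 2 Mb, those reported to target FOXM1, the 5 most like it, its neighbours in level and in fold change, references and cell markers. miR-1910-5p, miR-125a-5p, miR-130b-5p and miR-451a were named after their values were seen. The members and lists were chosen with earlier results of these data known.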

Additional observations from a re-analysis of the deposited data

How the results depend on the processing

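miR-4521 was lower in RARαS77A cells under each of the 22 alternatives run, at log2 values between -4.02 and -2.69. In 18 of them it moved by less than the spread between replicates (0.54, pooled SD of log2 CPM). Among these 18, limma on log2(TPM + 10), at -3.81, lay only just inside that limit. The other 4 were total counts only (-3.84), limma on log2(TPM + 1) (-3.92) and the ratios to miR-16-5p (-2.69) and miR-21-5p (-4.02). Without single libraries it lay between -3.71 and -3.05, and against control replicate 3 alone, an alternative chosen after seeing the data, it was -3.62 by share of counts. Its CV in RARαS77A cells was between 44.3% and 50.6%, and in control cells between 18.4% and 22.7%, under 4 other scalings.

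Over all miRNAs, 118 were higher and 107 lower. The higher ones became 51 with total counts only, 55 and 59 with limma on log2(TPM + 1) and log2(TPM + 10), and 76 with the batch term. The lower ones became 213, 221 and 218 under the first 3 of these, 55 with the batch term and 162 with no filter, and the cause was not tested. Without single libraries they were 101 to 125 and 92 to 116.

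Of the miRNAs reported to target FOXM1, 0 were called higher with total counts only and with limma on TPM (0 also at an unadjusted p under 0.05), and 2 with upper quartile factors and limma-voom. Called lower were 2 with total counts, RLE factors, totals without the 5 most abundant miRNAs and limma on TPM, and 0 with upper quartile factors (0 at an unadjusted p under 0.05) and the batch term (1 at an unadjusted p under 0.05). Without single libraries 1 to 2 were called higher and 0 to 2 lower. Within 2 Mb, 0 were called higher in any fit, and 0 were called lower with the batch term (2 at an unadjusted p under 0.05) and 2 to 3 without single libraries.

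Both groups carry the numbers 1 to 3. Deviations of libraries with the same number correlated at 0.0386, 0.0996 and 0.0247, which gives no pairing, and each of control replicates 1 and 2 correlated best with its own number while control replicate 3 did not. With a replicate block 107 miRNAs were higher and 94 lower, the log2 fold change of miR-4521 was -3.37, and the 2 lower miRNAs within 2 Mb, and the 1 higher and 1 lower reported to target FOXM1, were called as before. Depth did not limit miR-4521, whose lowest count was 622, but left 3 miRNAs of each list untested.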
